A study of Homo sapiens with 6 samples.

Results

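The genes described here are the STEAP metalloreductases and the core genes of cellular iron handling: STEAP1, STEAP2, STEAP3, STEAP4, TFRC, SLC11A2, SLC40A1, FTH1, FTL and IREB2. They were found by matching their symbols to the numeric gene IDs of the count files, and all 10 were among the 30727 genes listed. STEAP1 and STEAP2 were picked because their counts were lower in the knockdown, so their values are given as a description, with no test. The other 8 genes belong to the same family or to the same iron pathway. The data are gene counts from sequenced polyadenylated RNA of PANC-1, a human cell line derived from a carcinoma of the pancreatic duct. The knockdown group is 3 libraries of cells given siRNA against SUV420H2, the histone H4 lysine 20 methyltransferase now named KMT5C, and the control group is 3 libraries labelled control. All are of the same line, with no other treatment in the labels. The kind of control, the time after transfection and the origin of the replicates (separate cultures or not) are not stated in those labels, so each p-value reflects only how far these libraries spread, which may be technical.

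STEAP proteins are heme-binding membrane enzymes that reduce ferric iron to ferrous iron and cupric to cuprous copper with electrons from NADPH. STEAP1 lacks the cytoplasmic NADPH-binding domain that its relatives carry. Iron bound to transferrin enters the cell through the transferrin receptor (TFRC), is reduced in the endosome by STEAP3 and leaves it through the divalent metal transporter DMT1 (SLC11A2). In the cytosol it is stored in ferritin, a shell of heavy (FTH1) and light (FTL) chains, or exported by ferroportin (SLC40A1). The iron regulatory proteins, encoded by ACO1 and IREB2, bind a short RNA hairpin, the iron-responsive element (IRE), when iron is scarce. Binding in a 5′ UTR blocks translation, as in the ferritin mRNAs, and binding in the 3′ UTR of TFRC protects the mRNA from decay. Pancreatic duct carcinoma cells are known for an active turnover of ferritin in the lysosome, through the receptor NCOA4.

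The hairpins are printed because some of the iron genes measured here are known to carry them. Each was located in the GENCODE 29 transcripts (GRCh38) as the pattern CNNNNNCAGTGN in a UTR, with the 5 bases between the C and CAGTGN able to pair with those after it, either directly or with 1 extra base on the 3′ side. The capitals mark the bulged C and the CAGTGN loop, and the sequences are written as DNA, 5′ to 3′ on the strand of the gene. TFRC had 4 matches in its 3′ UTR, on the minus strand at chr3:196050979-196051007, chr3:196050575-196050603, chr3:196050510-196050538 and chr3:196050463-196050491, printed in that order. SLC11A2 had 1 with an extra base in its 3′ UTR (chr12:50988269-50988297, minus strand), in 5 of its 11 complete coding transcripts. SLC40A1 (chr2:189580661-189580689, minus), FTH1 (chr11:61967574-61967602, minus) and FTL (chr19:48965335-48965363, plus) had 1 each in the 5′ UTR.
TFRC element a: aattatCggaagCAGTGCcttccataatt
TFRC element b: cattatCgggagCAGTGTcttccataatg
TFRC element c: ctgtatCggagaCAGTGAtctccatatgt
TFRC element d: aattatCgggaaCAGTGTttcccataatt
SLC11A2: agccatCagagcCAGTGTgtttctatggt
SLC40A1: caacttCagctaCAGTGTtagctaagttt
FTH1: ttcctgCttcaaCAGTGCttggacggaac
FTL: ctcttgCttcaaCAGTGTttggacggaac

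The FTH1 and FTL elements shared 26 of 29 bases. IREB2 itself also held a match with an extra base in its 3′ UTR, in 1 of 2 complete coding transcripts. None of the STEAP genes held a match. Of 19524 genes searched the same way, 2.12% had a match of either form in a UTR. A match is a description of letters, not evidence that the element is bound in these cells. Counts per gene do not part the SLC11A2 transcripts with the element from those without it.

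Before the results, the state of the libraries. They held 20863594 to 38022772 counted reads. KMT5C, the targeted gene, had 7.23 to 12.7 CPM (read counts relative to library size, scaled by TMM) in the controls and 5.86 to 6.11 CPM in the knockdown (edgeR log2 change −0.72 with SE 0.163 and adjusted p = 0.00227). Control replicate 3 stood apart from the other controls: the chi-square per gene of its counts against them was 11.3 and 13.6. The same measure was 1.55 for the other controls and 1.98 to 2.26 for pairs within the knockdown. It was also the highest control for KMT5C, whose log2 change without it was −0.50. For genes named here, a call that changes without it is given both ways. Keratins and EPCAM, which mark the duct carcinoma, were detected in every library and summed to 2430 to 2960 CPM in the controls and 5670 to 5900 CPM in the knockdown. KRT8 and KRT18 made up most of that rise (log2 change 1.54 and 1.57), while KRT19 fell from 915.1 to 734.4 CPM (edgeR log2 change −0.32, adjusted p = 0.00472). Of cells that handle much iron, the summed erythroid markers (5 genes, HBB at 0 reads) did not exceed 0.34 CPM. Macrophage markers (6 genes) summed to 0.675 to 0.902 CPM in the controls and 2.3 to 2.5 CPM in the knockdown, mostly from CD14.

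The 3 STEAP members that were expressed had lower counts in the knockdown. STEAP1 and STEAP2 were picked for this, so a test is given only for STEAP3. Of all genes tested, 34.2% were called lower (edgeR adjusted p under 0.05). STEAP1 (gene ID 26872, chromosome 7 from 90154469 to 90164827 of GRCh38) had 5.59, 5.69 and 4.74 CPM in the controls and 1.23, 1.44 and 0.832 CPM in the knockdown, from 118 to 140 and from 25 to 47 reads per library. STEAP2 (gene ID 261729; chromosome 7, 90211740 to 90243408), a reductase of iron and copper, had 11.2, 11.8 and 9.33 CPM in the controls and 1.59, 1.44 and 1.66 CPM in the knockdown, from 238 to 280 and from 39 to 61 reads. For neither gene did the groups overlap, and control replicate 3 was the lowest control for both. The knockdown mean was 21.8% of the control mean for STEAP1 (log2 fold change −2.19, SE 0.168) and 14.5% for STEAP2 (−2.77, SE 0.128). Only 0.579% of the genes tested had a lower fold change than STEAP1 and 0.23% a lower one than STEAP2. Both genes were picked for these values, so these and all later values of the pair are a description.

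STEAP3 (gene ID 55240; chromosome 2, 119223834 to 119265652), the endosomal ferrireductase of the transferrin cycle, was not picked by value and fell to about the same level in every knockdown library. It had 134, 142 and 147 CPM in the controls and 69.3, 67.4 and 66.9 CPM in the knockdown, with no overlap. The mean went from 140.9 ± 6.69 to 67.9 ± 1.27 CPM (SD, n = 3 each), and edgeR gave a log2 change of −1.05 with SE 0.0482 (adjusted p = 1.17e-08). Permuting these 6 values exactly (two-sided) gave p = 0.1, the smallest that 3 against 3 allows, as it did for every gene below whose groups did not overlap. The call is to be read against the background of this experiment, in which 67.3% of 15190 genes tested passed the same threshold, 33.1% higher and 34.2% lower, and 71.3% had groups that did not overlap.

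STEAP4 (gene ID 79689), an inducible member best known from adipose tissue and inflammation, had 0 reads in the controls together, which allows up to 0.0417 CPM, and 1 read in the knockdown. It lay below the count filter, as did SLC40A1. Counting limits of this kind cover counting error only.

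**Figure D1:**
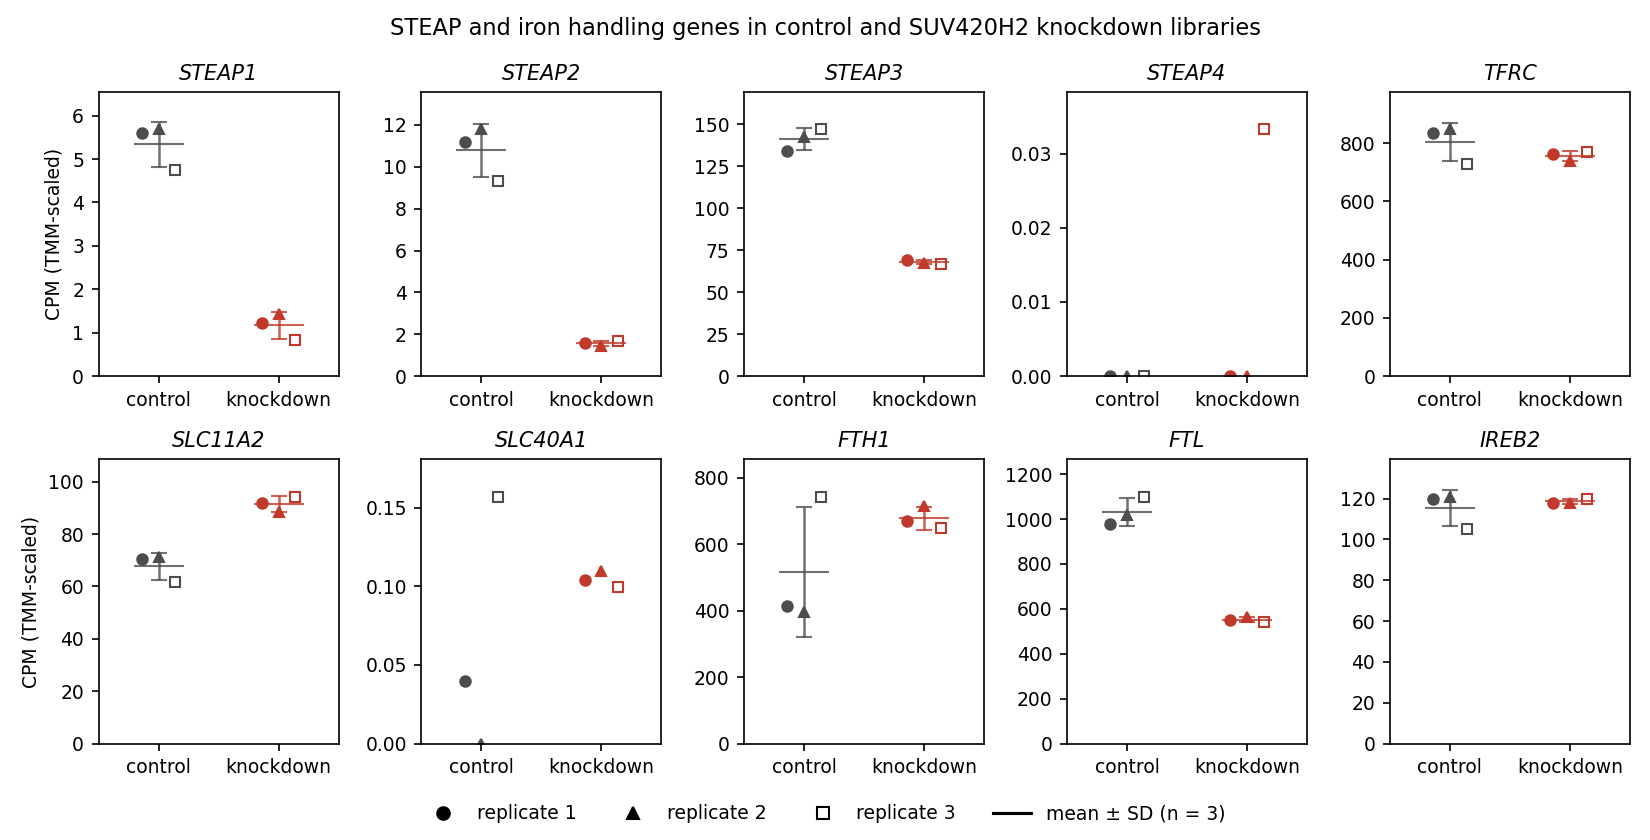
Each panel plots TMM-scaled CPM (linear axis from 0) of 1 gene in the 3 control and 3 knockdown libraries; symbols are replicates, horizontal lines are means and error bars are SD (n = 3), left out for STEAP4 and SLC40A1, which had few reads. STEAP1, STEAP2, STEAP3 and FTL lie lower in all knockdown libraries, SLC11A2 lies higher, and control replicate 3 of FTH1, at 744 CPM, lies above the knockdown libraries while the other controls lie at 413 and 396 CPM.

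STEAP1 and STEAP2 are neighbours, with 46.9 kb between them and in the same orientation; STEAP4 lies 1.85 Mb away on the same chromosome. Within 1 Mb on either side of the pair, the files list 10 other genes, of which 3 had enough reads to be tested. GTPBP10, a mitochondrial GTPase 103 kb away, was lower by a small amount, from 33.07 to 28.96 CPM (edgeR log2 change −0.19 with SE 0.0598 and adjusted p = 0.0151), a call lost without control replicate 1 (adjusted p = 0.0979) or knockdown replicate 2 (0.0581; range over all alternatives 0.000258 to 1). CLDN12, a claudin 160 kb away, stood at 57.4 and 59.3 CPM (edgeR log2 change 0.05 with SE 0.0562 and adjusted p = 0.469). CDK14, a cyclin-dependent kinase 353 kb away, fell from 2.82 to 1.36 CPM (edgeR log2 change −1.07 with SE 0.167 and adjusted p = 0.000173). CFAP69, 2 kb from STEAP2, had 27 reads in the controls and 31 in the knockdown and was not tested, and STEAP2-AS1 had 0 reads in every library. Around STEAP4, 5 of 8 genes listed within 500 kb were tested: 1 was higher, 3 lower and 1 did not pass. The shares over all genes tested were 33.1% higher and 34.2% lower. The lower genes near STEAP4 included SRI, the calcium-binding protein sorcin (−1.04, SE 0.0487), and SRI-AS1. SRI-AS1 overlaps SRI and cannot be told apart from it, since nothing states that strand was used in counting.

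The stretches upstream of STEAP1 and STEAP2 are shown because both genes had lower counts and lie side by side. They are the 250 bases before the RefSeq start (GRCh38.p14), at chr7:90154219-90154468 and chr7:90211490-90211739, both on the plus strand. Capitals mark matches, on either strand, to 5 motifs: the GC box GGGCGG, the E-box CACCTG bound by ZEB and SNAI repressors, the AP-1 site TGANTCA, the CCAAT box CCAAT and the TATA box TATAAA.
STEAP1: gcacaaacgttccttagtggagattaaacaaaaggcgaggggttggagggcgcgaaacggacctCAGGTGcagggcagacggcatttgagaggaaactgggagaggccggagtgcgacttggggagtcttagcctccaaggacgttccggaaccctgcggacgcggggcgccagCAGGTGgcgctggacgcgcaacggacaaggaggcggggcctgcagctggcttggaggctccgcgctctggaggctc
STEAP2: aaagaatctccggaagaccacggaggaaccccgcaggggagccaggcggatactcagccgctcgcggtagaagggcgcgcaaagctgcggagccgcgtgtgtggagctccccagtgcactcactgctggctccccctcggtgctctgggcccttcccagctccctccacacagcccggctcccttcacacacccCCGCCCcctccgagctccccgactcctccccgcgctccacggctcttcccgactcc

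The STEAP1 stretch held 2 E-box matches and the STEAP2 stretch held none. Of 27305 promoters of the same length, 17.5% held at least 1 such match, and the share with 2 was not computed. The STEAP2 stretch held 1 GC box, found in 42.3% of promoters, and the STEAP1 stretch none. Neither held an AP-1 site (6.6% of promoters), a CCAAT box (33.0%) or a TATA box (11.1%). Each stretch held 21 CpG dinucleotides, more than 70.2% of promoters, and STEAP3 held 25. The files hold no measurement of factor binding or of histone marks at these stretches.

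Other genes listed with the iron reductases moved both ways. Of 5 listed, 4 were tested, 3 higher and 1 lower, beside 33.1% higher and 34.2% lower over all genes tested. CYB561, a cytochrome b561 that passes electrons across vesicle membranes, rose from 53.2 ± 2.28 to 92.4 ± 2.00 CPM (edgeR log2 change 0.79 with SE 0.0486 and adjusted p = 1.04e-07). FRRS1, a ferric reductase, rose from 0.538 ± 0.121 to 1.01 ± 0.259 CPM (edgeR log2 change 0.95 with SE 0.276 and adjusted p = 0.0105), and the lysosomal relative CYB561A3 rose from 85.2 ± 7.31 to 96.0 ± 4.27 CPM (edgeR log2 change 0.17 with SE 0.0631 and adjusted p = 0.0315). FRRS1 did not pass in DESeq2 (adjusted p = 0.0661) or without knockdown replicate 1 (0.0569; range over all alternatives 0.00192 to 0.166). CYB561A3 did not pass without control replicate 1 (0.0646) or 2 (0.0968) or knockdown replicate 1 (0.139) or 2 (0.0572; range 1.83e-05 to 1). STEAP1B, a close copy of STEAP1 elsewhere on chromosome 7, was lower, 1.21 ± 0.129 against 0.504 ± 0.188 CPM (edgeR log2 change −1.33 with SE 0.275 and adjusted p = 0.00131). Its value and that of STEAP1 are uncertain, since counting unique alignments leaves out reads that the copies share. The duodenal reductase CYBRD1 was below the filter and not tested. It had 26 reads in the controls together (mean 0.360 CPM) and 12 in the knockdown (0.126 CPM).

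Of the genes that carry iron through the transferrin route, SLC11A2 rose and TFRC did not pass. TFRC (gene ID 7037; chromosome 3, 196049284 to 196082090) had 836, 848 and 727 CPM in the controls and 763, 737 and 770 CPM in the knockdown. The groups overlapped through control replicate 3, the lowest of the 6, and the gene did not pass (edgeR log2 change −0.09 with SE 0.0572 and adjusted p = 0.2). Without that library the remaining controls lay above all knockdown libraries and TFRC passed, at −0.16 with SE 0.0268 (edgeR adjusted p = 9e-06; range over all alternatives 9e-06 to 1). SLC11A2 (gene ID 4891; chromosome 12, 50952263 to 51028886) had 70.4, 71.1 and 61.8 CPM in the controls and 91.9, 88.4 and 94.3 CPM in the knockdown, with no overlap. It rose from 67.8 ± 5.14 to 91.5 ± 2.96 CPM (edgeR log2 change 0.43 with SE 0.0588 and adjusted p = 5.71e-05) but its change was not shown to exceed 1.5-fold (adjusted p = 1; range 2.12e-11 to 1).

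Around the receptor, single genes moved much further than TFRC. Of 14 further genes of the transferrin cycle and iron uptake, 11 were tested, 5 higher and 2 lower (45.5% and 18.2%). The shares over all genes tested were 33.1% and 34.2%. The median log2 fold change was 0.27 for the list and −0.01 over all genes tested. HFE, the membrane protein that binds TFRC and is mutated in hereditary hemochromatosis, fell from 24.3 ± 0.325 to 5.63 ± 0.832 CPM (edgeR log2 change −2.10 with SE 0.0956 and adjusted p = 1.13e-08). TFR2, the second transferrin receptor, fell from 6.17 ± 0.833 to 4.17 ± 0.285 CPM (edgeR log2 change −0.57 with SE 0.118 and adjusted p = 0.00133). TF, which encodes transferrin itself, rose from 0.512 ± 0.102 to 5.62 ± 0.368 CPM (edgeR log2 change 3.46 with SE 0.163 and adjusted p = 1.5e-08), from 36 reads in the controls together to 533. Other hepatocyte markers had few reads, in the controls and in the knockdown: ALB had 2 and 4 and HAMP 0 and 4. APOA1 (10 and 43 reads) and SERPINA1 (12 and 49 reads) had 3.22 and 2.97 times the control CPM in the knockdown, and their part in the TF result was not tested. MELTF, melanotransferrin, a membrane-anchored relative, rose from 8.74 ± 0.724 to 21.8 ± 1.05 CPM (edgeR log2 change 1.32 with SE 0.0808 and adjusted p = 1.07e-07).

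The ferritin chains parted. FTL (gene ID 2512; chromosome 19, 48965309 to 48966879) had 978, 1020 and 1100 CPM in the controls and 551, 563 and 543 CPM in the knockdown. It fell from 1035 ± 63.6 to 552.2 ± 10.4 CPM (edgeR log2 change −0.91 with SE 0.0490 and adjusted p = 4.18e-08). FTH1 (gene ID 2495; chromosome 11, 61964285 to 61967634) had 413, 396 and 744 CPM in the controls and 670, 715 and 649 CPM in the knockdown. Its groups overlapped only because control replicate 3 was higher than every other library, and it did not pass (edgeR log2 change 0.39 with SE 0.189 and adjusted p = 0.0904). Leaving it out gave 0.74 for FTH1 with SE 0.0336 (edgeR adjusted p = 1.27e-16), and it also passed in limma-voom (0.45, adjusted p = 0.0449) and with no low-count filter (0.38, adjusted p = 5.53e-09; range over all alternatives 1.27e-16 to 1). The call for FTH1 thus changed with control replicate 3, with the test and with the filter. FTL passed in every alternative run, at −0.86 without that library.

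The balance of the chains is free of any scaling between libraries, because both are read in the same library. In the deposited RPKM, which correct for gene length, the ratio of FTH1 to FTL was 0.299, 0.274 and 0.478 in the controls and 0.862, 0.900 and 0.848 in the knockdown. Every knockdown library lay above every control, control replicate 3 included. The mean ratio was 0.351 ± 0.111 in the controls, 0.287 in the controls without replicate 3, and 0.870 ± 0.0272 in the knockdown (SD, n = 3 each; exact two-sided permutation p = 0.1, the smallest possible). Both genes have many processed pseudogenes, and reads that align to more than 1 place were not counted, so the levels of FTH1 and FTL are uncertain; of pseudogenes numbered in these families the files list FTH1P3, with 13 and 21 reads in the 2 groups, and FTLP10, with none.

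**Figure D2:**
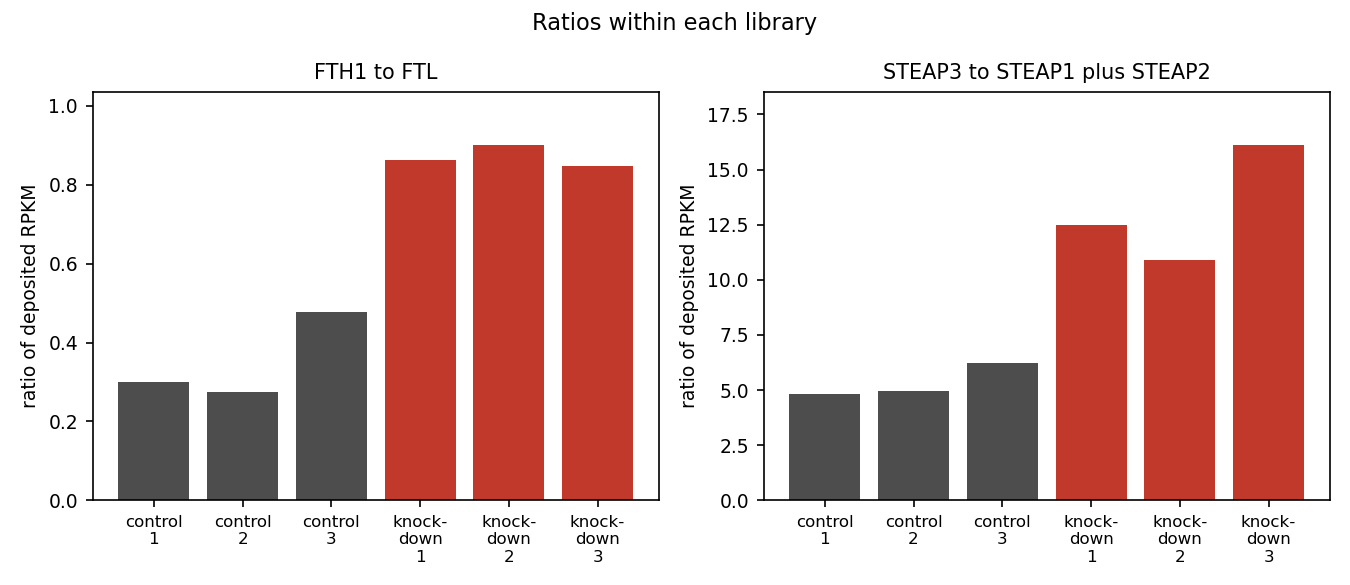
Bars give, for each of the 6 libraries, the ratio of deposited RPKM of FTH1 to FTL (left) and of STEAP3 to the sum of STEAP1 and STEAP2 (right); axes start at 0 and each bar is 1 library. The FTH1 to FTL ratio is 0.274 to 0.478 in the controls and 0.848 to 0.900 in the knockdown, and the STEAP3 ratio is 4.80 to 6.25 in the controls and 10.9 to 16.1 in the knockdown, the latter shown as a description because STEAP1 and STEAP2 were picked by value.

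Among the genes that load and unload ferritin, most changes were small. Of 9 iron chaperone and ferritin turnover genes, 7 were tested, 2 higher and 4 lower (28.6% and 57.1%). The shares over all genes tested were 33.1% and 34.2%. NCOA4, the receptor that carries ferritin to the lysosome, fell from 229.4 ± 12.6 to 193.3 ± 3.70 CPM (edgeR log2 change −0.25 with SE 0.0477 and adjusted p = 0.000808). HERC2, the ligase that degrades NCOA4, was at 0.14 (edgeR adjusted p = 0.0219), the iron chaperone PCBP1 at −0.14 (adjusted p = 0.0225), PCBP2 at −0.03 (adjusted p = 0.505) and PCBP4 at −0.68 (adjusted p = 2.56e-05). GLRX3 and BOLA2, which together carry iron-sulfur clusters in the cytosol, stood at 0.35 (edgeR adjusted p = 4.23e-05) and −0.37 (adjusted p = 0.0193); BOLA2 has a near-identical copy and is uncertain. The small changes of HERC2, PCBP1 and BOLA2 lost their call when single libraries were left out. For HERC2 these were control replicates 1 and 2 and knockdown replicate 2 (adjusted p = 0.0531, 0.0506 and 0.108), and it also did not pass with no low-count filter (0.0539). For PCBP1 they were control replicate 1 and knockdown replicates 2 and 3 (0.0534, 0.0594 and 0.108). For BOLA2 they were control replicate 2 and knockdown replicates 1 and 3 (0.0757, 0.0519 and 0.078), and it did not pass in DESeq2 (0.0972).

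On the export side the cells had next to no ferroportin mRNA. SLC40A1 (gene ID 30061; chromosome 2, 189560590 to 189580786) had 5 reads in the controls together and 10 in the knockdown, a depth-corrected ratio of 1.52 (exact 95% interval from counting error, 0.473 to 5.66), so no difference was detectable at this depth. The hormone that removes ferroportin, hepcidin (HAMP), had 0 and 4 reads, and 5 of the 8 genes of export and its hormone axis were below the filter. Of the 3 tested, 2 rose and 1 fell, beside 33.1% higher and 34.2% lower over all genes tested. CP, ceruloplasmin, a copper ferroxidase that works with ferroportin, rose from 31.4 ± 2.69 to 46.8 ± 1.29 CPM (edgeR log2 change 0.58 with SE 0.0669 and adjusted p = 1.67e-05). FURIN, a convertase that processes hepcidin among many substrates, rose from 105.7 ± 8.64 to 230.8 ± 5.03 CPM (edgeR log2 change 1.13 with SE 0.0570 and adjusted p = 2.52e-08). BMP6, a growth factor that induces hepcidin in liver, fell from 91.5 ± 2.04 to 53.5 ± 0.954 CPM (edgeR log2 change −0.77 with SE 0.0447 and adjusted p = 6.73e-08).

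The genes of the iron regulatory proteins themselves, IREB2 and ACO1, moved by little at the RNA level. IREB2 (gene ID 3658; chromosome 15, 78437431 to 78501453), whose protein is degraded when iron is plentiful, had 120, 121 and 105 CPM in the controls and 118, 118 and 120 CPM in the knockdown. The groups overlapped, and the gene did not pass (edgeR log2 change 0.04 with SE 0.0567 and adjusted p = 0.56); without control replicate 3, its lowest library, the value was −0.03 (adjusted p = 0.417). ACO1, the other iron regulatory protein, fell from 103.1 ± 4.49 to 88.3 ± 2.93 CPM (edgeR log2 change −0.22 with SE 0.0489 and adjusted p = 0.00188). Of the 6 genes listed for control of the iron regulatory proteins, all were tested and 5 fell, against a background of 34.2% lower. They include 4 parts of the ubiquitin ligase that degrades the IREB2 protein. Any effect of these changes on that protein was not tested. FBXL5, the iron-sensing subunit of the ligase, fell from 33.6 ± 2.89 to 21.1 ± 1.54 CPM (edgeR log2 change −0.67 with SE 0.0794 and adjusted p = 1.9e-05). The adaptor SKP1 was at −0.31 (edgeR adjusted p = 6.84e-05), the ring protein RBX1 at −0.33 (adjusted p = 0.00212) and the scaffold CUL1 at −0.14 (adjusted p = 0.0179). The call of CUL1 was lost without control replicate 1 or 2 (adjusted p = 0.126 and 0.0583) or knockdown replicate 1 or 2 (0.0801 and 0.0545). CIAO3, of the cytosolic iron-sulfur machinery, was at 0.07 (edgeR adjusted p = 0.506), and at 0.17 (adjusted p = 0.0159) without control replicate 3. Of other transcripts known for an IRE, EPAS1, the hypoxia factor HIF-2 alpha, rose (edgeR log2 change 0.51 with SE 0.0417 and adjusted p = 1.01e-06), the phosphatase gene CDC14A rose (edgeR log2 change 0.42 with SE 0.101 and adjusted p = 0.00359), the profilin PFN2 fell (edgeR log2 change −0.57 with SE 0.0502 and adjusted p = 1.72e-06), CDC42BPA did not pass, and ALAS2 was below the filter.

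Heme, iron-sulfur and redox genes connected to this pathway moved both ways. Of 18 heme genes, all tested, 5 rose and 7 fell (27.8% and 38.9%, median −0.05). The shares over all genes tested were 33.1% and 34.2%. HMOX1, which releases iron from heme, fell from 299.5 ± 23.9 to 59.4 ± 2.37 CPM (edgeR log2 change −2.33 with SE 0.0619 and adjusted p = 3e-10), and UROS, of heme synthesis, from 57.9 ± 1.38 to 30.5 ± 0.423 CPM (edgeR log2 change −0.93 with SE 0.0505 and adjusted p = 4.31e-08). The heme carriers ABCG2 (0.96) and SLC48A1 (1.0) rose. Of 26 genes of mitochondrial iron and iron-sulfur clusters, 7 rose and 9 fell (26.9% and 34.6%, median 0.05), beside the same 33.1% and 34.2%. Both mitochondrial iron importers fell, SLC25A37 by 0.73 on the log2 scale (SE 0.0591, edgeR adjusted p = 8.96e-07) and SLC25A28 by 0.69 (SE 0.0598, edgeR adjusted p = 1.67e-06), while the ferredoxin FDX1 (0.56) and the glutaredoxin GLRX5 (0.41) rose.

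FTH1, FTL and HMOX1 are known targets of the oxidant-responsive factor NRF2, so other targets were examined, with ferroptosis genes. Of 18 listed, 17 were tested, 8 higher and 7 lower (47.1% and 41.2%, median −0.08), beside 33.1% and 34.2% over all genes tested. TXNRD1, thioredoxin reductase, rose from 846.2 ± 43.5 to 1984 ± 31.0 CPM (edgeR log2 change 1.23 with SE 0.0462 and adjusted p = 3.37e-09) and AIFM2, a ferroptosis suppressor, by 0.44 (SE 0.0541, edgeR adjusted p = 2.91e-05), while GCLC, the catalytic subunit of glutathione synthesis, fell from 105.6 ± 4.68 to 50.7 ± 0.388 CPM (edgeR log2 change −1.06 with SE 0.0480 and adjusted p = 1.11e-08). STEAP enzymes also reduce copper, and of 17 copper genes 16 were tested, 1 higher and 9 lower (median −0.25). These shares, 6.25% and 56.2%, stand beside 33.1% and 34.2% over all genes tested. The copper importer SLC31A1 rose (edgeR log2 change 0.48 with SE 0.0654 and adjusted p = 6.38e-05). The metallothionein MT1E fell from 74.9 ± 4.25 to 38.4 ± 1.87 CPM (edgeR log2 change −0.96 with SE 0.0589 and adjusted p = 1.04e-07), and SCO1, which delivers copper to cytochrome oxidase, from 32.4 ± 0.322 to 20.8 ± 0.0362 CPM (edgeR log2 change −0.64 with SE 0.0550 and adjusted p = 1.58e-06). Several of the 9 lower copper genes are metallothionein genes. Such genes are near-identical copies and their counts are uncertain. Over all 10 lists, 113 of 127 genes were tested, 35 higher (31.0%) and 46 lower (40.7%), with a median of −0.02. Among all genes tested, 33.1% were higher and 34.2% lower. Against a 1.5-fold change, 9 and 10 of them passed.

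**Figure D3:**
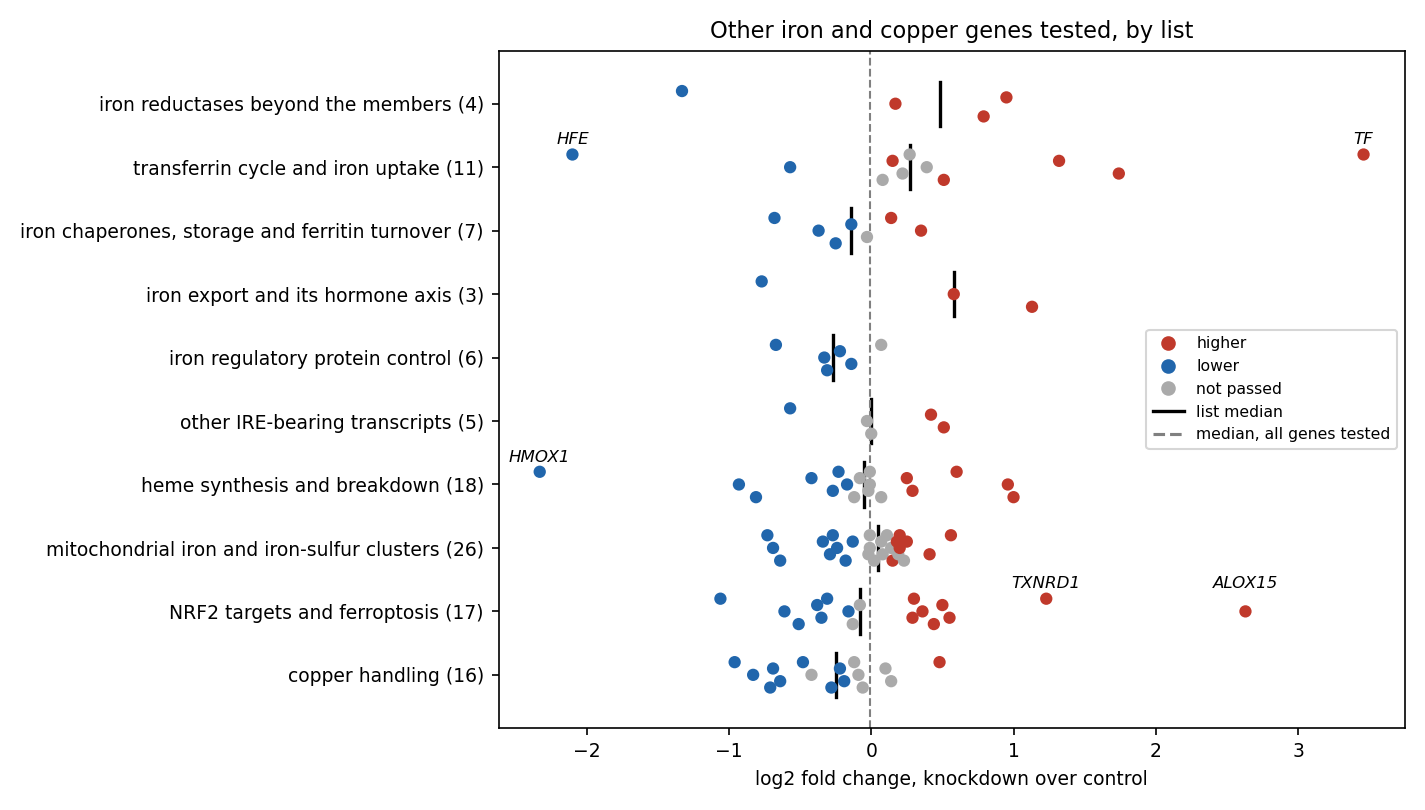
Each point is 1 gene tested, placed by its log2 fold change (knockdown over control, horizontal axis) in the row of its list, whose number of genes tested stands in brackets; red is higher, blue lower and grey not passed (edgeR adjusted p, threshold 0.05), black bars are list medians and the dashed line is the median of all genes tested, −0.01. TF at 3.46, HFE at −2.10 and HMOX1 at −2.33 lie far from the medians of their lists.

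Per length, the order of the genes was the same in both groups except for STEAP3 and IREB2. In the deposited RPKM the controls ran from FTL (1150 ± 62.0) through FTH1 (407 ± 151), TFRC (147 ± 13.3), STEAP3 (28.5 ± 1.19), IREB2 (17.6 ± 1.53), SLC11A2 (9.24 ± 0.772) and STEAP1 (3.94 ± 0.414) to STEAP2 (1.45 ± 0.185; SD, n = 3 each). In the knockdown the order was FTL (621.3 ± 11.4), FTH1 (540.7 ± 26.9), TFRC (140.1 ± 3.21), IREB2 (18.3 ± 0.201), STEAP3 (13.9 ± 0.251), SLC11A2 (12.6 ± 0.415), STEAP1 (0.869 ± 0.228) and STEAP2 (0.213 ± 0.0160). In both groups each of these genes lay above the next in all 3 libraries. STEAP3 was the main STEAP transcript throughout, at 4.80 to 6.25 times the sum of STEAP1 and STEAP2 in the controls and 10.9 to 16.1 times in the knockdown. In bulk libraries, fewer cells with a transcript and less of it per cell cannot be told apart.

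Genes with a course across the 6 libraries like that of STEAP1 or STEAP2 were found by the root mean square difference of log2 CPM, each gene centred on its own mean, and are named as a description. Nearest to STEAP1 were LY75, an endocytic receptor (0.158), IFITM1, an interferon-induced membrane protein (0.181), and KIAA0319 (0.197). Nearest to STEAP2 were GLB1L2 (0.101), SLC4A8, a sodium-bicarbonate transporter (0.104), and the noncoding RNA MEG3 (0.144). None lies on chromosome 7. The same measure between STEAP1 and STEAP2 was 0.395. STEAP1 gave 32.5% to 33.7% of the reads of the pair in the controls and 43.5%, 50% and 33.3% in the knockdown.

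**Figure D4:**
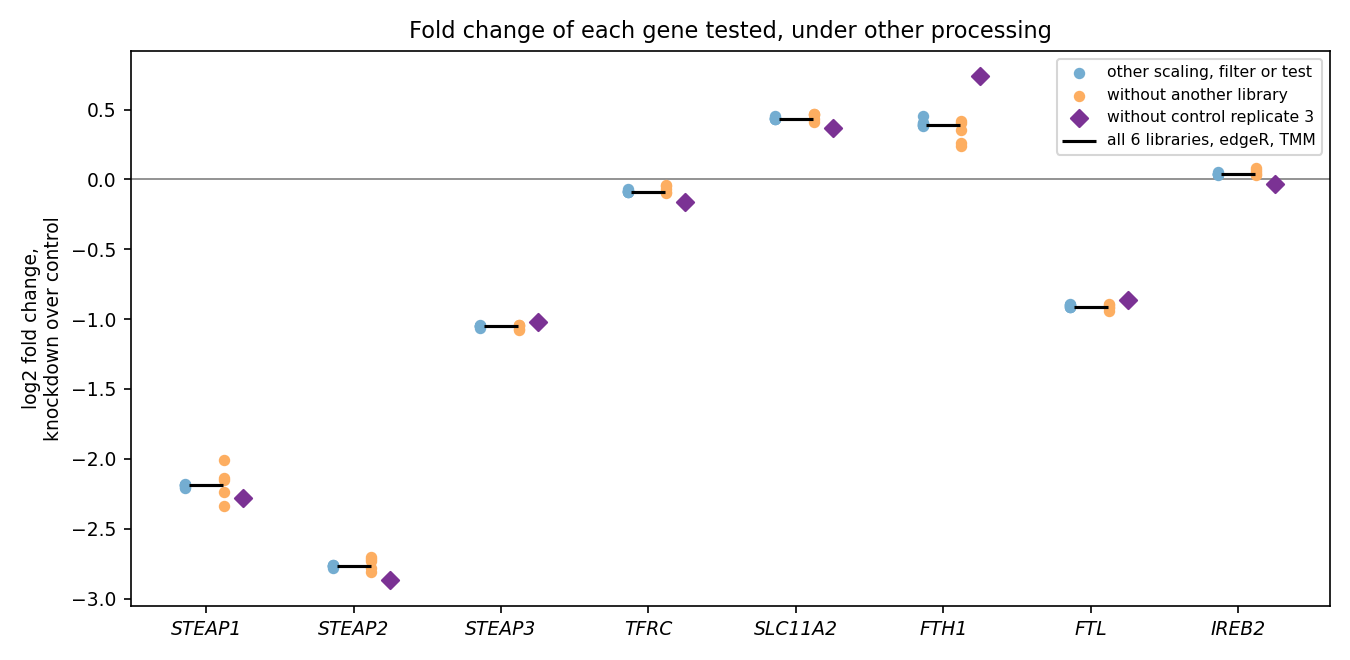
Points give the log2 fold change (knockdown over control, vertical axis) of the 8 genes above the count filter with all libraries in edgeR (black bar), with other scalings, filters or tests (blue), without 1 library other than control replicate 3 (orange) and without control replicate 3 (purple). Leaving out control replicate 3 moves FTH1 from 0.39 to 0.74 and TFRC from −0.09 to −0.16, while STEAP3 stays between −1.08 and −1.02 and FTL between −0.94 and −0.86.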

How the data were processed

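Per the file headers, each of the 6 files holds, for every gene, the count of reads that the authors aligned uniquely to the gene model, and an RPKM that the authors adjusted by size factors. Per the submitters' processing notes, GSNAP and GRCh38 were used; for the version, annotation release, strand setting and size-factor method nothing is stated. Symbols and positions came from RefSeq (GRCh38.p14) for 27814 of 30727 IDs, and all 10 genes and 127 others of the lists matched. Groups follow the siRNA label; replicates are numbered in accession order and pair nothing. Counts were filtered (filterByExpr, minimum count 10, minimum total 15), scaled by TMM and tested over all genes with edgeR 4.0.16 (quasi-likelihood, two-sided, Benjamini-Hochberg, threshold 0.05) in R 4.3.3; log2 change means the log2 fold change, knockdown over control, with its SE. Deposited RPKM served for levels between genes and for ratios within a library. The procedure was tested on simulated data.

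The genes and lists were chosen with earlier results of these data known. All tested genes are named in the 4 shortest lists closest to the pathway (reductases, chaperones and storage, export, iron regulatory proteins); in other lists, up to 2 genes per direction with the smallest p. Some results that this rule would name are not reported here. Marker genes and genes near STEAP4 named beside them were chosen after their values were seen. Alternatives were DESeq2 1.42.0 size factors or Wald test, upper-quartile scaling, other low-count filters, limma-voom (limma 3.58.1), a test against a 1.5-fold change, and leaving out each library. Neuron, astrocyte and hepatocyte markers were also read: neuron markers summed to 47.9 to 51.8 CPM in the controls and 33.2 to 37.5 CPM in the knockdown, nearly all from MAP2, astrocyte markers to at most 0.626 CPM, and hepatocyte markers to 0.679 to 1.01 and 6.32 to 7.03 CPM, mostly from TF.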

Additional observations from a re-analysis of the deposited data

How the results depend on the processing

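No paired analysis was possible because the labels carry no replicate numbers. Of the 8 genes not picked by value, 6 were tested and 3 called (STEAP3, SLC11A2 and FTL), and 5 without control replicate 3, when TFRC and FTH1 also passed; over the libraries left out in turn the number ran from 3 to 5. Over all genes tested, 67.3% were called. Against a 1.5-fold change, 2 of the 6 passed (STEAP3 and FTL), 19 of the other iron and copper genes passed (9 higher, 10 lower) in place of 81 (35 and 46), 1 neighbour of STEAP1 and STEAP2 in place of 2, and 2998 of all genes (1606 higher, 1392 lower) in place of 10216. Leaving out 1 library left 1 to 2 neighbours called. Of 87 named or listed genes called, 71 kept their call in every alternative but the 1.5-fold test, which 65 did not pass; no called gene changed direction. Of 36 not called, 11 passed without control replicate 3; the cause was not tested. STEAP1 ran from −2.34 to −2.01 and STEAP2 from −2.87 to −2.70 over the alternatives. STEAP1 rests on 25 to 140 reads per library, and STEAP4 and SLC40A1 were too sparse to compare.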
